A study of Mus musculus with 15 samples.

Results

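The genes described here are 8 transcription factors that act on the testis side of the supporting cell lineage, *Sox9*, *Sox8*, *Sox10*, *Dmrt1*, *Gata4*, *Nr5a1*, *Wt1* and *Zfpm2*. They were taken by name from 30176 genes whose array entries carried 1 gene symbol, and each was measured by 1 transcript cluster, a set of probes that the array reads as a single transcribed region. Whole gonads, freed of the mesonephros, were collected from mouse embryos at embryonic day 15.5 (E15.5), and the RNA of each sample was hybridized to 1 Affymetrix Clariom D type mouse transcriptome array. There were 15 arrays in 3 groups of 5. The dKO XY group held XY gonads that were Amh-/-; Inhbb-/-, and so lacked both anti-Müllerian hormone and the activin/inhibin beta B subunit. The control XY and control XX groups held testes and ovaries that were Amh+/+; Inhbb+/+. All embryos came from crosses within C57BL/6 lines of the 2 mutations, which are carried in every cell and not driven by a Cre, and the methods describe the samples as biologically independent. E15.5 is the age given by the sample labels, whereas the study's data statement places these arrays at an earlier stage.

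The supporting cells of the fetal gonad become Sertoli cells in the testis and pregranulosa cells in the ovary. In XY gonads SRY, acting with NR5A1, switches on *Sox9*, and SOX9 then drives Sertoli cell differentiation, helped by SOX8, which with SOX10 makes up the rest of the SoxE group. GATA4 with its cofactor FOG2 (encoded by *Zfpm2*), NR5A1 and WT1 act before this step and are used by both sexes, while DMRT1 helps to keep Sertoli cells from turning into granulosa cells after birth.

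All levels are normalized log2 signals as deposited, given as mean ± SD over 5 arrays, and differences are in the same units with their standard error (SE). A gene was called changed where its Benjamini-Hochberg adjusted p in limma, taken over 65956 clusters, was below 0.05 and the groups were 1 log2 unit or more apart. The deposited values ran from 2.13 to 19.93, and 891 clusters passed 16, the most that a 16-bit scanner gives on a plain log2 scale. The scale is therefore stretched by an amount not given in the sources used here, and a difference of 1 unit may be a smaller ratio than it appears. The levels of the 8 factors lay between 5.04 and 12.99. Signals of different genes depend on their probes, so levels are compared between groups and not between genes. In whole gonads, fewer cells of a type and less RNA per cell cannot be told apart.

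The labels were borne out by the genes that define them. *Amh* stood at 11.47 ± 0.49 in control XY, and low in both other groups, at 4.51 ± 0.15 in dKO XY and 4.31 ± 0.14 in control XX, and *Xist* was high in control XX only, at 16.39 against 5.59 in dKO XY and 5.96 in control XY. *Inhbb* was 1.26 ± 0.08 (SE) lower in dKO XY than in control XY (limma adjusted p = 6.83e-08). Its cluster still read 9.27 in dKO XY, against 10.53 in control XY and 9.18 in control XX, so it shows a fall and not a loss of signal. The array medians lay between 5.17 and 5.33, and the mean correlation of each array with the others of its group was 0.9914 to 0.9952. Median signal was 3.61 over the antigenomic background probes and 6.24 over 5222 negative control probe sets.

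In dKO XY gonads 1 of the 8 factors was called against control XY, *Wt1*, which rose by 1.03 ± 0.13, and none was called lower. *Sox9*, *Dmrt1* and *Nr5a1*, all called higher in testis than in ovary, lay within 0.11 of control XY. *Sox8* was 0.74 lower and *Gata4* 0.37 higher, both past the adjusted p but under 1 log2 unit. Over all clusters, 0.567% were called higher and 1.62% lower in dKO XY. Among the 30176 genes with 1 symbol, from which the factors were taken, the shares were 0.921% and 0.845%, so the excess of lower calls lies in the other clusters. Without regard to size, 3 of the 8 factors passed the adjusted p, against 10.4% of all clusters and 4051 of the 30176 genes with 1 symbol. The same 3 factors had no overlap between the 5 dKO XY and 5 control XY arrays, against 8.85% of all clusters. The median difference of the 8 factors was 0.07, and that of all clusters 0.01.

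**Figure D1:**
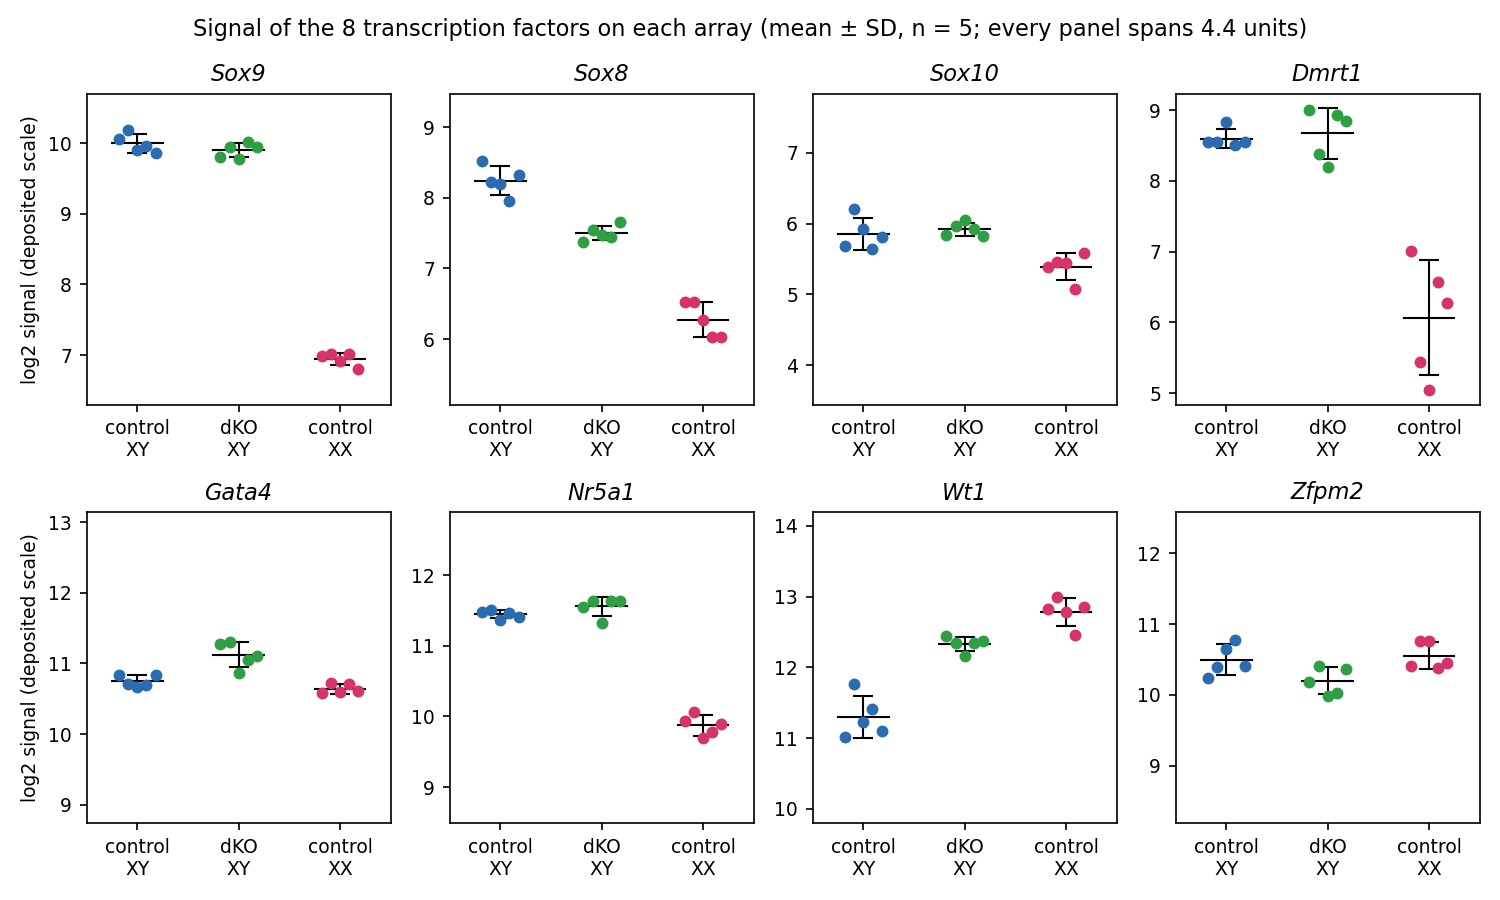
Log2 signal (deposited scale, vertical axes) of each of the 8 factors in the 3 groups, 1 point per array, with lines for the mean and bars for the SD (n = 5). *Sox9*, *Dmrt1* and *Nr5a1* sit at the control XY level in dKO XY, *Sox8* lies between both controls, and *Wt1* lies nearer to control XX.

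*Sox9* encodes the HMG box factor at the centre of the Sertoli cell programme and lies on chromosome 11. Its signals were 9.80, 9.95, 9.78, 10.01 and 9.94 on the dKO XY arrays, 10.06, 10.19, 9.90, 9.96 and 9.86 on the control XY arrays and 6.99, 7.01, 6.92, 7.01 and 6.81 on the control XX arrays. The dKO XY and control XY arrays overlapped, and all 10 of them lay far above every control XX array. The means were 9.90 ± 0.10, 9.99 ± 0.13 and 6.95 ± 0.08 (SD, n = 5 each). The difference between dKO XY and control XY was -0.10 ± 0.08 (95% interval -0.26 to 0.07, limma adjusted p = 0.551), whereas control XX fell by 3.04 ± 0.08 against control XY (adjusted p = 1.72e-13). On a line from the control XX mean at 0% to the control XY mean at 100%, dKO XY stood at 96.9%, with 95.8% to 98.4% when each array was left out in turn. The interval leaves room for a fall of up to 0.26, which is small beside the difference between testis and ovary.

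*Sox8*, on chromosome 17, encodes the closest partner of SOX9 in Sertoli cells, where in mice both together maintain the testis cords. Its signals were 7.38, 7.54, 7.47, 7.45 and 7.65 on the dKO XY arrays, 8.52, 8.22, 8.19, 7.95 and 8.32 on the control XY arrays and 6.53, 6.53, 6.27, 6.03 and 6.03 on the control XX arrays. The 3 groups did not overlap, and every dKO XY array lay between the controls. The difference between dKO XY and control XY was -0.74 ± 0.12 (95% interval -0.99 to -0.49, limma adjusted p = 0.00075), so it passed the adjusted p and missed the size needed for a call. *Sox8* was called in both comparisons with the ovary: control XX fell by 1.96 ± 0.12 against control XY (adjusted p = 3.23e-09), and dKO XY was 1.22 ± 0.12 above control XX (adjusted p = 2.18e-06). With the deposited values rescaled to a highest value of 16, the latter was 0.98, which ends that call. The dKO XY mean stood at 62.3% of the way from control XX to control XY (60.1% to 64.6% with each array left out).

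*Sox8* is the SoxE gene whose level differed between dKO XY and control XY. Among the factors, it alone was found in the set of promoter sequences used here. No other promoter could be shown, so the choice does not rest on its level. The RefSeq sequence (GRCm38.p6, chr17:25570637-25570936, minus strand) runs from 250 bases before the transcription start to 50 bases past it, has a GC content of 66.3%, and is written 5′ to 3′ with GC boxes (GGGCGG) and an E-box (CACGTG) in capitals.
Sox8 promoter: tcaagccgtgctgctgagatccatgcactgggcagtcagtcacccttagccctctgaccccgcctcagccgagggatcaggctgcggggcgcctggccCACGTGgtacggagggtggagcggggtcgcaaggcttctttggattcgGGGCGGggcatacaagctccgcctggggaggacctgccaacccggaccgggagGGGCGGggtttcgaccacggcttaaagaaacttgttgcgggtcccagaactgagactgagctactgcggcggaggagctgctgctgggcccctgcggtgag
The GC boxes begin 104 and 51 bases before the start and the E-box 152 bases before it. Both strands were searched, and 35.7% of 32851 RefSeq promoters of this length hold GGGCGG and 7.15% hold CACGTG. No match was found in this window for the SOX core ACAAAG (in 18.7% of promoters), the GATA motif AGATAA (11.2%), the NR5A1 motif CAAGGTCA (1.56%), the WT1 and EGR type motif GCGGGGGCG (2.91%) or the TATA box TATAAA (13.6%).

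*Sox10*, on chromosome 15, is best known in neural crest, Schwann cells and melanocytes, and can start testis development when forced on in XX mouse gonads. Its signals were 5.84, 5.97, 6.05, 5.92 and 5.82 on the dKO XY arrays, 5.68, 6.21, 5.93, 5.64 and 5.81 on the control XY arrays and 5.39, 5.46, 5.45, 5.07 and 5.59 on the control XX arrays. All 15 were low, and 5.39 to 5.92, the range of the group means, lies above the antigenomic background but below the median of the negative control sets. The dKO XY and control XY arrays overlapped (difference 0.07 ± 0.11, 95% interval -0.17 to 0.31, limma adjusted p = 0.802), and the control XX arrays lay below all others. Control XX was 0.46 ± 0.11 below control XY (adjusted p = 0.00583), under the size of a call. *Sox10* is also a marker of neural crest derivatives, so 12 measured markers of those cells were set beside it. Their mean level on an array was 5.57 to 5.70 on dKO XY arrays, 5.44 to 5.68 on control XY arrays and 5.49 to 5.65 on control XX arrays, and the defining markers *Foxd3* (group means 4.71 to 4.73) and *Dct* (4.04 to 4.13) were close to background in all groups. Of the 12, none was called in dKO XY against control XY, and *Erbb3* alone was called in control XX against control XY (-1.53 ± 0.17).

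*Sox9* and *Sox8* changed unequally. Within each array the signal of 1 gene was subtracted from that of another, and the subtracted values were compared between dKO XY and control XY. *Sox9* minus *Sox8* was 2.40 ± 0.11 in dKO XY and 1.75 ± 0.23 in control XY (SD, n = 5), a difference of 0.64 with no overlap (exact two-sided permutation test, p = 0.00794, adjusted p = 0.0119 over 3 pairs). Both pairs with *Sox10* were tested too, with differences of -0.17 for *Sox9* minus *Sox10* (exact permutation p = 0.214) and -0.81 for *Sox8* minus *Sox10* (exact permutation p = 0.00794, adjusted p = 0.0119). Since the *Sox10* signal was below the median of the negative control sets, nothing is read from these pairs. With 5 arrays against 5, 0.00794 is the smallest p this test can give. The subtracted values themselves depend on the probes of each gene, and only their change between groups can be read.

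**Figure D2:**
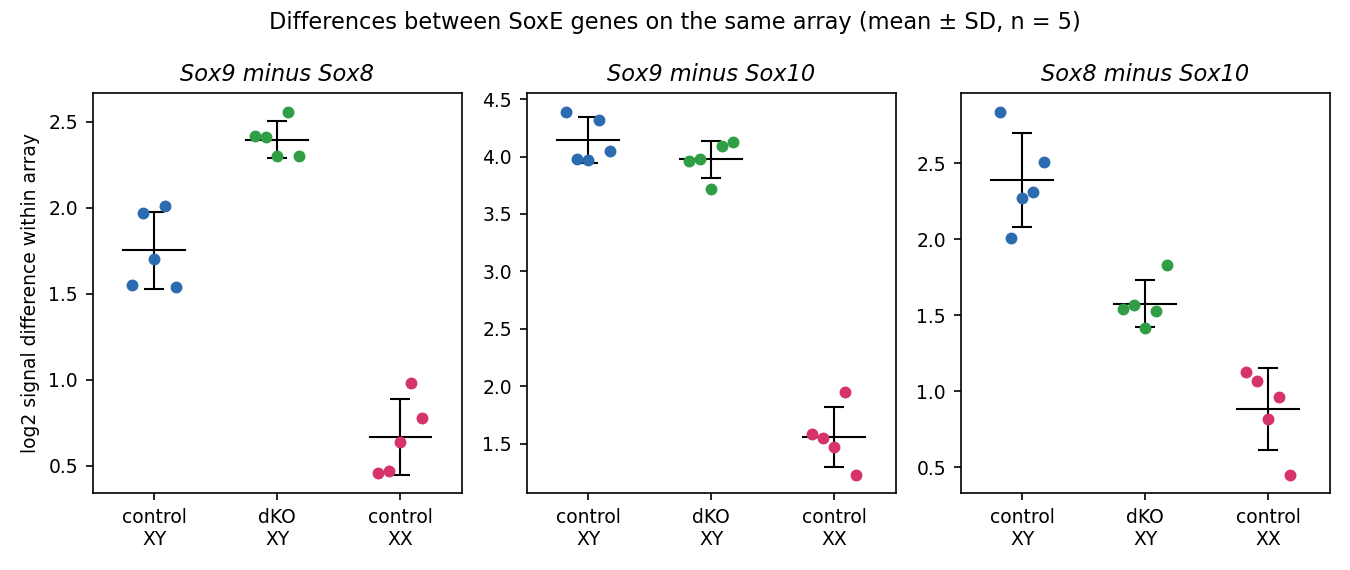
Difference in log2 signal between pairs of SoxE genes on the same array (vertical axes, deposited scale) in the 3 groups, 1 point per array, with lines for the mean and bars for the SD (n = 5). *Sox9* minus *Sox8* is higher on all 5 dKO XY arrays than on any control XY array; pairs with *Sox10* rest on a signal near background.

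*Dmrt1*, on chromosome 19, encodes a DM domain factor that is made in Sertoli cells and in germ cells. Its signals were 9.0, 8.38, 8.20, 8.93 and 8.85 on the dKO XY arrays, 8.55, 8.55, 8.83, 8.51 and 8.55 on the control XY arrays and 7.01, 5.44, 5.04, 6.57 and 6.27 on the control XX arrays. The dKO XY arrays lay on both sides of control XY, and the control XX arrays were all lower and the most scattered of any factor, with an SD of 0.81. The difference between dKO XY and control XY was 0.08 ± 0.29 (95% interval -0.54 to 0.69, limma adjusted p = 0.928), the widest interval of the 8 factors. The fit shares 1 spread over the 3 groups, so the control XX scatter widens it, beside SDs of 0.36 in dKO XY and 0.13 in control XY. The interval leaves room for a change in either direction. Control XX fell by 2.53 ± 0.29 against control XY (adjusted p = 4.90e-06), and dKO XY stood at 103% of the way from control XX to control XY (99.7% to 108% with each array left out).

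Since *Dmrt1* is shared with germ cells, germ cell genes were read on the same arrays. *Pou5f1*, a pluripotency factor of fetal germ cells, had the pattern nearest to *Dmrt1* of all other genes with 1 symbol, with a root mean square difference of 0.31 over 15 arrays after the control XY mean of each gene was subtracted. Its control XX signals were 7.04, 5.91, 5.64, 6.48 and 6.74, so replicates 2 and 3 were lowest and replicate 1 highest, as for *Dmrt1*. *Dppa3*, another germ cell gene, picked after its values were seen, read 8.20, 5.77, 5.28, 6.09 and 7.05 on the same arrays, again lowest in replicates 2 and 3. On the dKO XY arrays *Pou5f1* read 9.13, 8.45, 8.49, 9.43 and 9.38 and *Dppa3* 11.08, 10.10, 10.23, 11.52 and 11.55. Replicates 2 and 3 were lowest there too, as for *Dmrt1*, but the highest replicate differed between the 3 genes. The control XY arrays did not follow this order: *Pou5f1* read 8.15, 9.27, 9.07, 8.59 and 8.69 and *Dppa3* 8.47, 11.83, 10.82, 10.29 and 9.79, lowest in replicate 1 and highest in replicate 2, while *Dmrt1* stayed between 8.51 and 8.83. Between dKO XY and control XY, *Pou5f1* differed by 0.22 ± 0.28 (limma adjusted p = 0.736) and was not called. Of 10 germ cell markers, 2 rose in dKO XY (*Sycp3* by 2.92 and *Dazl* by 1.56), 1 fell (*Dppa4*, difference -1.29), and the median difference was 0.22. The other listed germ cell markers were not compared with *Dmrt1* array by array. Their control XX SDs ran from 0.12 (*Mael*) to 0.58 (*Dppa4*), against 0.81 for *Dmrt1*, 0.58 for *Pou5f1* and 1.16 for *Dppa3*. How far germ cells set the *Dmrt1* signal was not tested.

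**Figure D3:**
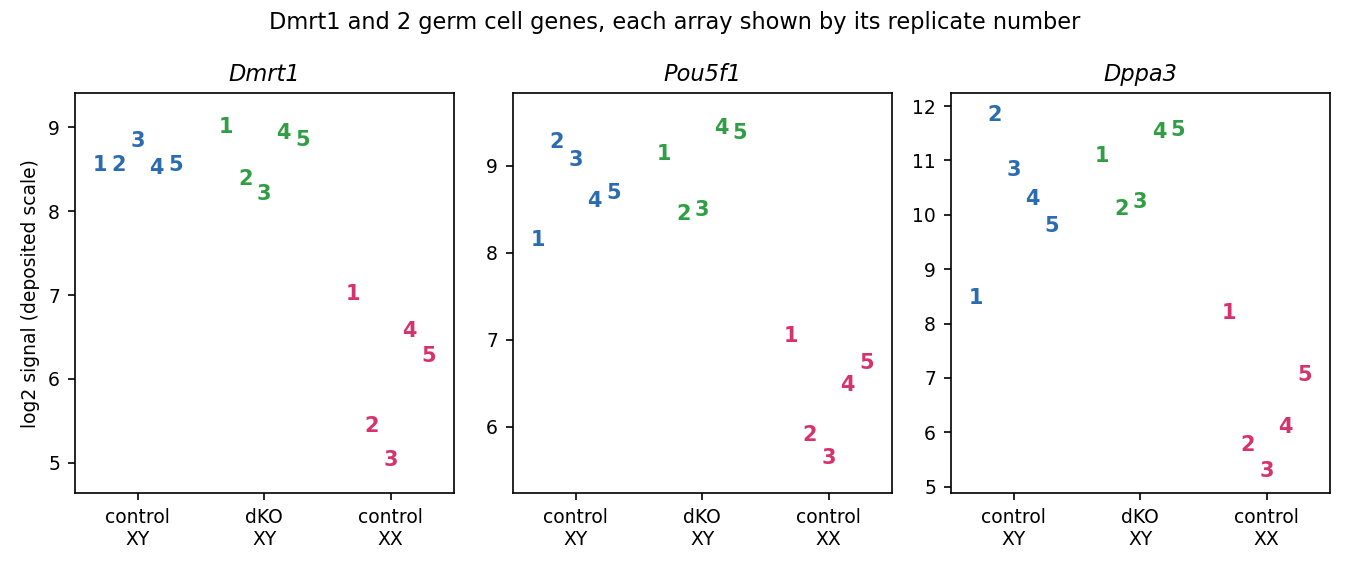
Log2 signal (deposited scale) of *Dmrt1* and of the germ cell genes *Pou5f1* and *Dppa3* on each of the 15 arrays, by group and replicate number. In control XX all 3 genes are lowest in replicates 2 and 3 and highest in replicate 1, while in control XY *Pou5f1* and *Dppa3* are lowest in replicate 1 and *Dmrt1* is not. In dKO XY all 3 genes are also lowest in replicates 2 and 3.

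*Nr5a1*, on chromosome 2, encodes steroidogenic factor 1, a nuclear receptor that Sertoli cells use to activate *Sox9* and *Amh* and that Leydig cells use for steroidogenesis. Its signals were 11.55, 11.63, 11.32, 11.64 and 11.64 on the dKO XY arrays, 11.48, 11.50, 11.37, 11.47 and 11.40 on the control XY arrays and 9.93, 10.07, 9.69, 9.78 and 9.90 on the control XX arrays. Both XY groups overlapped through dKO XY replicate 3, and all control XX arrays were lower. The difference between dKO XY and control XY was 0.11 ± 0.08 (95% interval -0.07 to 0.28, limma adjusted p = 0.508). Control XX fell by 1.57 ± 0.08 against control XY (adjusted p = 6.01e-10), and dKO XY stood at 107% of the way from control XX to control XY (106% to 111% with each array left out). Of 9 measured steroidogenic genes that NR5A1 drives, 0 were called in dKO XY against control XY (median -0.31). At any size, 3 passed the adjusted p: *Star*, which carries cholesterol into mitochondria (-0.60 ± 0.18, adjusted p = 0.0454), *Fdx1*, an electron carrier for steroid synthesis (-0.59 ± 0.18, adjusted p = 0.0440), and *Cyp21a1*, the steroid 21-hydroxylase (0.47 ± 0.12, adjusted p = 0.0169). *Cyp11a1* (16.38 in dKO XY, 17.00 in control XY) and *Cyp17a1* (18.87 and 19.28) read above 16. *Cyp17a1* was lower on every dKO XY array than on any control XY array, but its SE of 0.39 takes in the control XX scatter (SD 1.21). In control XX 8 of the 9 fell (median -4.50).

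*Wt1*, on chromosome 2, encodes a zinc finger factor of the gonadal surface epithelium and of supporting cells in both sexes. Its signals were 12.44, 12.34, 12.16, 12.34 and 12.38 on the dKO XY arrays, 11.01, 11.76, 11.23, 11.41 and 11.10 on the control XY arrays and 12.83, 12.99, 12.79, 12.46 and 12.85 on the control XX arrays. The 3 groups did not overlap: every dKO XY array was above every control XY array and below every control XX array. The rise in dKO XY was 1.03 ± 0.13 (95% interval 0.76 to 1.30, limma adjusted p = 7.79e-05), just past the size needed, and it was 0.96 without control XY replicate 1 and 0.98 without control XY replicate 5, which ends the call. Control XX was 1.48 ± 0.13 above control XY (adjusted p = 2.04e-07), so dKO XY stood at 30.4% of the way from control XX to control XY (27.5% to 34.0% with each array left out). The difference of -0.45 ± 0.13 between dKO XY and control XX had an adjusted p of 0.0236 and was not a call.

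Some markers of the surface epithelium, a tissue that also makes *Wt1*, rose in dKO XY as well. Of 10 such markers, 5 rose in dKO XY against control XY: the keratins *Krt18* (by 1.95 ± 0.14), *Krt8* (1.84 ± 0.20) and *Krt19* (1.18 ± 0.21), *Upk3b* (1.81 ± 0.19), a uroplakin of mesothelium, and *Muc16* (1.37 ± 0.17), a cell-surface mucin. The other 5 were not called: *Krt7* (0.59), *Upk1b* (0.23), *Lrrn4* (0.24), *Msln* (0.24) and *Rspo4*, which leaned lower (-0.40). The median difference of all 10 markers was 0.89, and their mean level on an array was 7.76 to 8.22 on dKO XY arrays, 6.80 to 7.32 on control XY arrays and 8.10 to 8.64 on control XX arrays. *Podxl*, which encodes a sialomucin of epithelial surfaces and had been listed as a nephron marker, rose by 2.85 ± 0.16 in dKO XY. It was the 1 gene called of 7 measured in that list (median 0.03). The parts of the surface epithelium and of the supporting cells, which also make *Wt1*, in the *Wt1* difference were not tested.

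*Gata4*, on chromosome 14, encodes a zinc finger factor needed to form the genital ridge and to express *Sry* in mice. Its signals were 11.28, 11.31, 10.87, 11.05 and 11.11 on the dKO XY arrays, 10.84, 10.71, 10.67, 10.70 and 10.84 on the control XY arrays and 10.58, 10.73, 10.59, 10.71 and 10.61 on the control XX arrays. All 5 dKO XY arrays were above all 10 control arrays, and both controls overlapped. *Gata4* was 0.37 ± 0.08 above control XY (95% interval 0.19 to 0.54, limma adjusted p = 0.00920) and 0.48 ± 0.08 above control XX (adjusted p = 0.00072), both under the size of a call. It is the 1 factor whose dKO XY mean lay outside both controls without overlap on either side.

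*Zfpm2*, on chromosome 15, encodes FOG2, the cofactor of GATA4. Its signals were 10.18, 10.41, 9.99, 10.03 and 10.37 on the dKO XY arrays, 10.24, 10.40, 10.65, 10.78 and 10.41 on the control XY arrays and 10.41, 10.76, 10.76, 10.38 and 10.45 on the control XX arrays. The dKO XY arrays tended to the lower end, but the groups overlapped. The difference from control XY was -0.30 ± 0.12 (95% interval -0.56 to -0.04, limma adjusted p = 0.149) and that from control XX was -0.36 ± 0.12 (adjusted p = 0.0617), so neither passed. Control XX and control XY differed by 0.06 ± 0.12 (95% interval -0.20 to 0.31, adjusted p = 0.814).

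**Figure D4:**
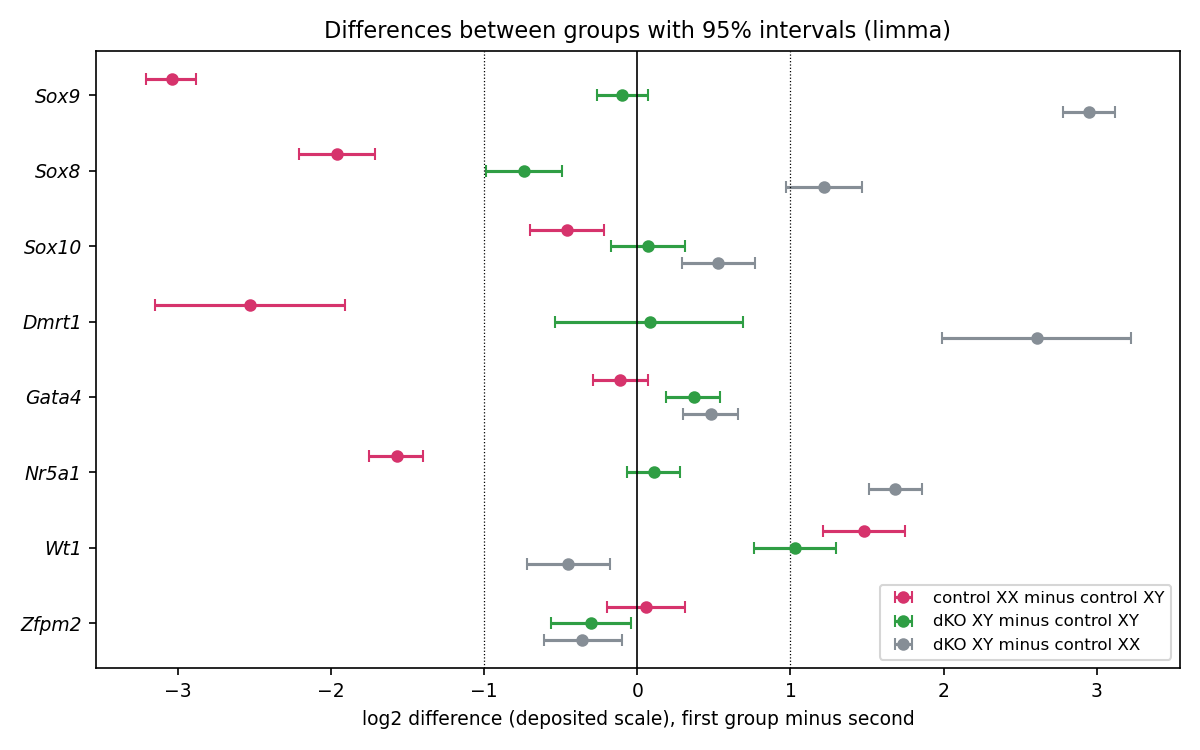
Log2 difference (deposited scale) with its 95% interval for each of the 8 factors in the 3 comparisons. Against control XY, dKO XY differs by 1 unit or more in *Wt1* alone (1.03), while control XX differs in *Sox9* (-3.04), *Dmrt1* (-2.53), *Sox8* (-1.96), *Nr5a1* (-1.57) and *Wt1* (1.48).

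Between the ovary and the testis, 4 of the 8 factors fell (*Sox9*, *Dmrt1*, *Sox8* and *Nr5a1*) and *Wt1* rose, where 2.54% of all clusters were called higher and 3.22% lower (3.64% and 3.17% of genes with 1 symbol). Of the 8, 6 passed the adjusted p at any size, against 24.2% of all clusters and 9250 of the 30176 genes with 1 symbol. Likewise 6 had no overlap, against 18.2% of all clusters. The comparison of dKO XY with control XX called the same 4 genes higher and none lower (*Sox8* not after the rescaling), where 1.22% of all clusters were called higher and 1.28% lower (1.75% and 1.71% of genes with 1 symbol). There 7 of the 8 passed the adjusted p at any size, against 15.1% of all clusters and 6679 of the 30176 genes with 1 symbol. Likewise 7 had no overlap, against 12.3% of all clusters. The median difference of the 8 factors was -1.02 in control XX against control XY and 0.87 in dKO XY against control XX. The 3 comparisons share arrays, so their values are given side by side and are not independent.

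Regulators that act before *Sox9* or help to maintain it included some that rose in dKO XY. Of 13 measured regulators other than *Sry*, 3 were called higher and 0 lower (median 0.18; with the cluster named *Sry*, 14 and 0.27). *Nr0b1*, an X-linked nuclear receptor known to oppose SRY and NR5A1, rose by 2.51 ± 0.17 (11.21 against 8.70, adjusted p = 2.62e-07) and was 1.53 ± 0.17 above control XX as well. *Gadd45g*, which in mice is needed for timely *Sry* expression, rose by 1.20 ± 0.09, and *Emx2*, a homeobox gene of the early gonadal epithelium, by 1.12 ± 0.16. Control XX stood above control XY by 2.54 ± 0.16 in *Emx2*, a call, and by 0.09 ± 0.09 in *Gadd45g*. The dKO XY level of *Emx2* thus lay between the controls. *Fgfr2*, the receptor through which FGF9 maintains *Sox9*, was 0.87 ± 0.12 higher and not called. The cluster named *Sry* read 7.57 ± 0.24 in control XX, which has no Y chromosome, so a signal of that size cannot be read as *Sry*. It was 7.64 ± 0.08 in control XY and 8.15 ± 0.23 in dKO XY, 0.50 ± 0.12 above control XY without overlap (adjusted p = 0.0121, not called).

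The genes that Sertoli cells express under these factors did not move as a block. Of 25 measured, 7 were called lower, 1 was called higher and 17 were not called (median -0.48). At any size 19 of the 25 passed the adjusted p, against 10.4% of all clusters and 4051 of the 30176 genes with 1 symbol. Those short of a call went both ways, such as *Inha* (-0.86) and *Cst9* (0.99). The 7 include *Amh* and *Inhbb*, the genes mutated in these embryos. Besides these, *Hsd17b1*, a steroid dehydrogenase, fell by 4.28 ± 0.25 (adjusted p = 4.16e-08), *Fshr*, the receptor for follicle-stimulating hormone, by 1.67 ± 0.19, and *Gdnf*, a growth factor for spermatogonia, by 1.01 ± 0.10. *Cldn11*, a tight junction protein of Sertoli cells, was the 1 that rose, by 1.63 ± 0.17. *Dhh*, the hedgehog ligand of Sertoli cells, was 0.85 ± 0.11 lower, under the size of a call, and remained 3.29 ± 0.11 above control XX. Against control XX, 19 of the 25 were higher and 0 lower (median 1.74).

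Of 11 measured ovary-side genes, 6 rose in dKO XY against control XY and 0 fell (median 1.01). They were *Lgr5* (by 3.05 ± 0.14), *Rspo1* (2.33 ± 0.15), which activates WNT signalling in the ovary, *Fst* (2.27 ± 0.21), which encodes the activin antagonist follistatin, *Runx1* (1.75 ± 0.08), *Foxl2* (1.08 ± 0.15), both granulosa lineage transcription factors, and *Irx3* (1.01). The *Foxl2* means, 5.21 in dKO XY and 4.13 in control XY, lay above the antigenomic background but below 6.24, the median of the negative control sets. In control XX 9 of the 11 were higher than in control XY (median 1.95), and 5 were higher than in dKO XY. The mean level of the 11 genes on an array was 7.62 to 7.95 on dKO XY arrays, 6.51 to 6.62 on control XY arrays and 8.78 to 8.91 on control XX arrays, without overlap. The Sertoli cell list had 8.69 to 9.0, 9.52 to 9.68 and 6.64 to 6.85 in the same order.

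**Figure D5:**
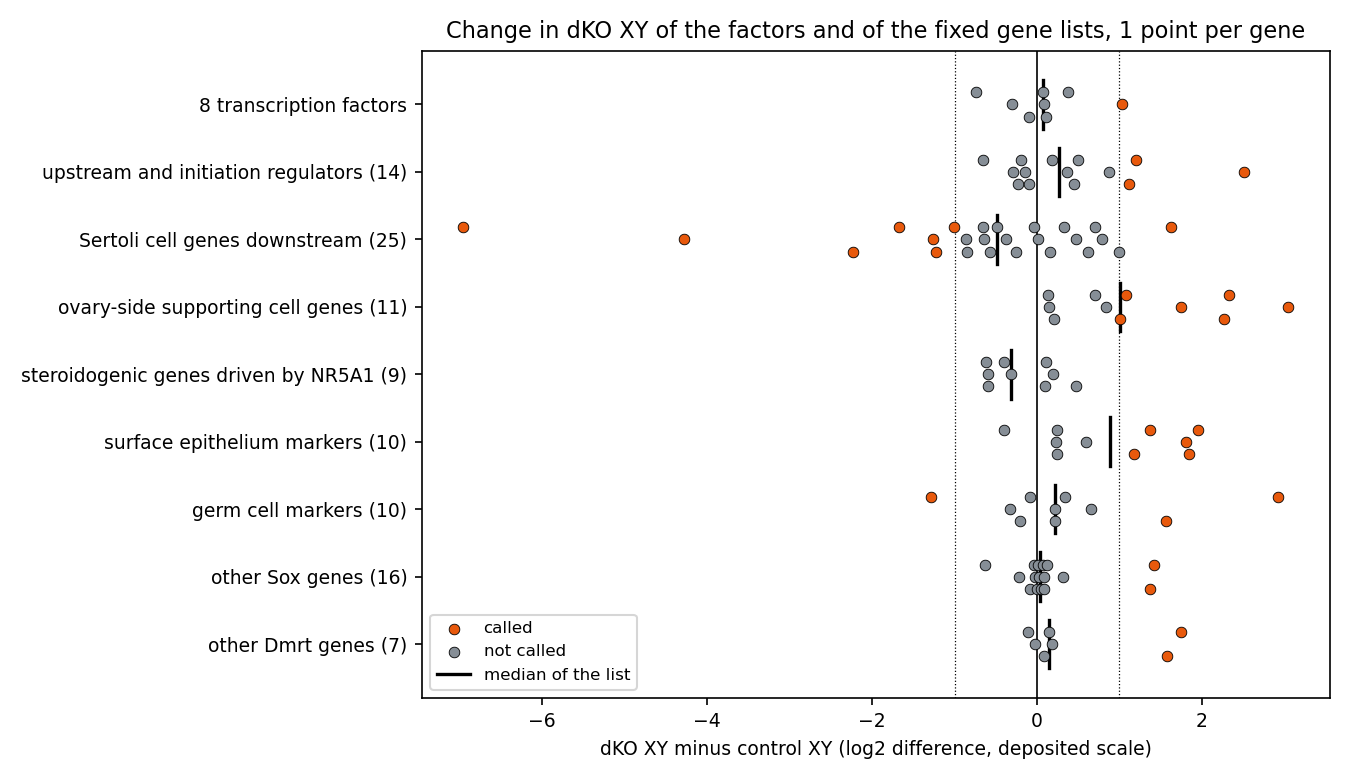
Log2 difference between dKO XY and control XY (horizontal axis, deposited scale) for the 8 factors and for 8 lists of related genes, 1 point per gene, with called genes in orange and a bar at each median; dotted lines mark 1 unit in either direction, and the regulators include the cluster named *Sry*. The factors span -0.74 to 1.03, whereas the Sertoli cell genes span -6.96 to 1.63 and the ovary-side genes 0.13 to 3.05.

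Relatives of the 8 factors were mostly not called in dKO XY. Of 16 other Sox genes, 2 rose: *Sox2* by 1.42 ± 0.34 and *Sox30* by 1.37 ± 0.16 (median 0.04). In control XX *Sox30* stood 3.39 ± 0.16 above control XY. Of 7 other Dmrt genes, 2 rose, *Dmrta1* by 1.75 ± 0.13 and *Dmrtc2* by 1.58 ± 0.19 (median 0.14). None of 6 other GATA, FOG and NR5A genes was called (median 0.24), with *Nr5a2* at 0.81 ± 0.24 and *Gata6*, which overlaps with GATA4 in function, at 0.39 ± 0.15 (adjusted p = 0.109).

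Lists for the other cells of the gonad stood as follows. Of 7 interstitial progenitor markers, 3 were called lower in dKO XY, with differences of -1.97 for *Wnt5a*, -1.34 for *Dlk1* and -1.25 for *Tcf21* (median -0.94). All 7 were lower and passed the adjusted p at any size, with differences from -1.97 to -0.49, where 10.4% of all clusters passed. None of the measured markers of endothelium (8, median 0.01), macrophages (8, median 0.15), erythroid cells (5, median 0.25) or adrenal cortex (4, median 0.07) was called in dKO XY.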

How the data were processed

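The authors deposited 1 normalized log2 signal per transcript cluster and array, made with the manufacturer's software and RMA normalization. Its genome build was not given in the sources used here. Of 72688 entries, 6732 control probes were left out of the tests and 65956 clusters were kept, of which 30638 carried 1 symbol, 2176 several and 33142 none. No per-sample column was left unused. Groups came from the labels.

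The 15 arrays entered 1 fit, with a mean for each group, in limma 3.58.1 in R 4.3.3 (eBayes, two-sided), after the code was tested on simulated data. Pairs of SoxE genes were compared with an exact permutation test. Arrays count no molecules, so their number limits the precision.

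The 8 factors, the gene lists and the tests were chosen with earlier results of these data known. All 8 factors were described on every array. Named besides were the nearest patterns and chromosomal neighbours of the factors, up to 4 genes of each list with the strongest moderated statistics, and, chosen after their values were seen, the other list genes given. Alternatives changed array scaling, weights, moderation, the arrays fitted, a filter on dim clusters (passed by all 8 factors), the scale, the replicate block and each array in turn.

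Replicate numbers 1 to 5 recur in every group, but same-numbered arrays mostly did not deviate together. Their deviations from the group means correlated at -0.191 to -0.0415 for dKO XY and control XY (0 of 5 pairs above 0.1), -0.113 to 0.189 for both controls (1 of 5) and -0.175 to 0.159 where control XX was set against dKO XY (1 of 5), so the numbers were not taken as pairs.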

Additional observations from a re-analysis of the deposited data

Results flagged for a closer look

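In 24 groups of 5 values (8 factors in 3 groups), 2 held an array far from its neighbours, with a gap over the whole range above 0.71; chance alone flags about 1 group in 20. *Dmrt1* was 8.83 in control XY replicate 3, while the other 4 control XY arrays lay between 8.51 and 8.55 (gap over range 0.883). *Nr5a1* was 11.32 in dKO XY replicate 3, below the other 4 dKO XY arrays at 11.55 to 11.64 (gap over range 0.731). Without these arrays neither gene was called in dKO XY against control XY (limma adjusted p = 0.887 for *Dmrt1* and 0.241 for *Nr5a1*).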

How the results depend on the processing

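Multiplying all deposited values so that the highest equals 16 left fewer clusters past 1 log2 unit, 644 in dKO XY against control XY (1444 before), 2506 in control XX against control XY (3801) and 1005 in dKO XY against control XX (1649). Under it 0 of the 8 factors were called in dKO XY against control XY, with *Wt1* at 0.83, and *Sox8* between dKO XY and control XX was 0.98, so that call was lost. The list counts were not redone under this rescaling. At its factor of 0.803, calls close to 1 unit are lost, among them *Irx3* (1.01), *Gdnf* (-1.01), *Foxl2* (1.08), *Emx2* (1.12), *Krt19* (1.18) and *Gadd45g* (1.20). With each array left out in turn, the factors called in dKO XY against control XY numbered 0 to 1 and the *Wt1* difference ran from 0.96 to 1.14; the calls were lost without control XY replicate 1 or 5. Over the 19 alternatives the adjusted p of *Wt1* ran from 7.55e-06 to 7.00e-04, that of *Sox8* from 0.000558 to 0.00343 and that of *Gata4* from 0.00214 to 0.0293. The *Wt1* difference between dKO XY and control XX had adjusted p values from 0.00822 to 0.0663, and that of *Zfpm2* from 0.0434 to 0.150.

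Signs reversed for differences near 0 only: *Dmrt1* in dKO XY against control XY was -0.01 without dKO XY replicate 1 (range 0.19 to -0.01), and *Zfpm2* in control XX against control XY was -0.01 without control XY replicate 1 (range 0.13 to -0.01). With the replicate number as a block, *Wt1* stayed at 1.03 (adjusted p = 0.000381), 1421 clusters were called in dKO XY against control XY, and no factor's call changed. The cluster with the second highest mean could not be tried, since each factor had 1 cluster. Signal over background limits *Sox10* most.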

Other observations

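The genes with patterns nearest to the called factors were found by the root mean square difference over 15 arrays, after subtraction of each gene's control XY mean, among 30168 other genes; these are descriptions and carry no test. Nearest to *Sox9* were *Me1* (0.19), *Alas1* (0.23) and *Acsbg1* (0.25), genes of metabolic enzymes. Nearest to *Sox8* were *Fads1* (0.20), *Septin11* (0.20) and *Camkk2* (0.21). Nearest to *Nr5a1* were *Eps8* (0.12), *Rnf181* (0.14) and *Grb14* (0.15), and nearest to *Wt1* were *Actr6* (0.17), *Baiap2l1* (0.19) and *Trim7* (0.19). After *Pou5f1*, the nearest to *Dmrt1* were *Elovl6* (0.38) and *Gm8163* (0.41).

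Genes next to the factors on the chromosome did not share 1 pattern. *Nr6a1*, which lies beside *Nr5a1* and encodes germ cell nuclear factor, stood 2.13 ± 0.16 above control XY in control XX (limma adjusted p = 4.81e-08) and 0.96 ± 0.16 higher in dKO XY (adjusted p = 0.00119, not called), against the direction of *Nr5a1* between ovary and testis. *Gm10863*, beside *Sox10*, differed by -0.74 ± 0.08 between control XX and control XY and differed by -0.04 ± 0.08 in dKO XY. *Gm11681*, beside *Sox9*, was 0.70 ± 0.17 lower in dKO XY than in control XY (adjusted p = 0.0114) and 0.91 ± 0.17 lower in control XX, at group means of 4.67 to 5.58. *Dmrt3*, beside *Dmrt1*, and *Neil2*, beside *Gata4*, differed by -0.11 and -0.36 in dKO XY.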
